A study of Mus musculus with 2 samples.

Results

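The genes described here are 9 of the 43346 genes in the tables: the receptor Ret, its co-receptors Gfra1 and Gfra2, their ligands Gdnf and Nrtn, the endothelin receptor Ednrb, its ligand Edn3, the endothelin-processing protease Ece1 and the transcription factor Sox10. They were taken by name, as genes through which neural crest cells colonise the gut and whose human counterparts have been tied to Hirschsprung disease, and all 9 symbols matched a single gene in the annotation. The series measured total RNA longer than 200 nt in the mouse intestine at embryonic day 16.5 (strain B6NCrl, whole tissue), with 2 libraries of 1 group made from 10 ng of RNA each. The embryos carried no labelled allele or treatment, and a separate pool of both sexes was used for each library. The pool of replicate 2 held 41 embryos. The size of the other pool was not given in the sources used here. Both pools are listed under the same donor identifier, and nothing in the labels ties a pool to separate litters, so the spread between the libraries may be partly technical. With 1 group there is no contrast between conditions, and the smallest exact two-sided sign-flip p that 2 libraries allow is 0.5, so no p-value is given.

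Enteric neurons and glia descend from neural crest cells that enter the foregut and migrate along the gut tube. RET is a receptor tyrosine kinase on these cells; it does not bind its ligands directly but through GFRA co-receptors held in the membrane by a lipid anchor, of which GFRA1 prefers GDNF and GFRA2 prefers neurturin, the product of Nrtn. The gut mesenchyme releases GDNF, which attracts the cells and keeps them dividing. Endothelin-3 is cut to its active form by ECE1 and acts on the G protein-coupled receptor EDNRB, which holds the crest cells in a progenitor state. SOX10 marks crest cells and glia and is lost in neurons. When the wave of cells does not reach the end of the bowel, the segment left without ganglia cannot relax, which is Hirschsprung disease.

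The libraries held 41279206 and 40758084 expected counts over genes, and the 9 genes took 0.0495% and 0.0485% of them. An expected count estimates the reads of a feature, with ambiguous reads split among candidates. Levels between genes are given in TPM, a relative abundance that corrects for transcript length, as the value in replicate 1 and replicate 2 or as mean ± SD (n = 2). Detection required at least 1 TPM in each library. Among markers of the labelled tissue, all 5 gut epithelium genes and all 6 smooth muscle genes were detected, at list medians of 818 ± 3.13 and 232 ± 5.83 TPM. All 4 pancreatic genes were detected as well, at a higher list median of 1217 ± 308 TPM. Detection of the gut lists therefore does not show that the samples held intestine alone. In whole tissue, fewer cells of a type and less RNA per cell cannot be told apart.

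All 9 genes were detected, where 62.0% of 21474 protein-coding genes were, and they covered almost 2 orders of magnitude. Ednrb led, Ece1 came next, Edn3 and Gfra1 shared the third place, and Ret, Nrtn, Sox10, Gfra2 and Gdnf followed. The median of the member means was 6.90 TPM, beside 4.46 for all protein-coding genes and 17.1 for the detected ones. In the order of the means, 7 of 8 neighbouring genes were apart, meaning that the log2 ratio had the same sign in both libraries and a mean above 3 SD. The same means set the order, so the direction of these pairs was given beforehand. Deposited intervals were apart in both libraries for 6 of 8, and the share among other gene pairs was not computed. The exception was Edn3 and Gfra1, whose order turned between the libraries, with a log2 ratio of 0.19 in replicate 1 and -0.16 in replicate 2. Ret and Nrtn passed that rule by a log2 ratio of 0.12 ± 0.0078, but the TPM intervals deposited with their values overlapped.

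**Figure D1:**
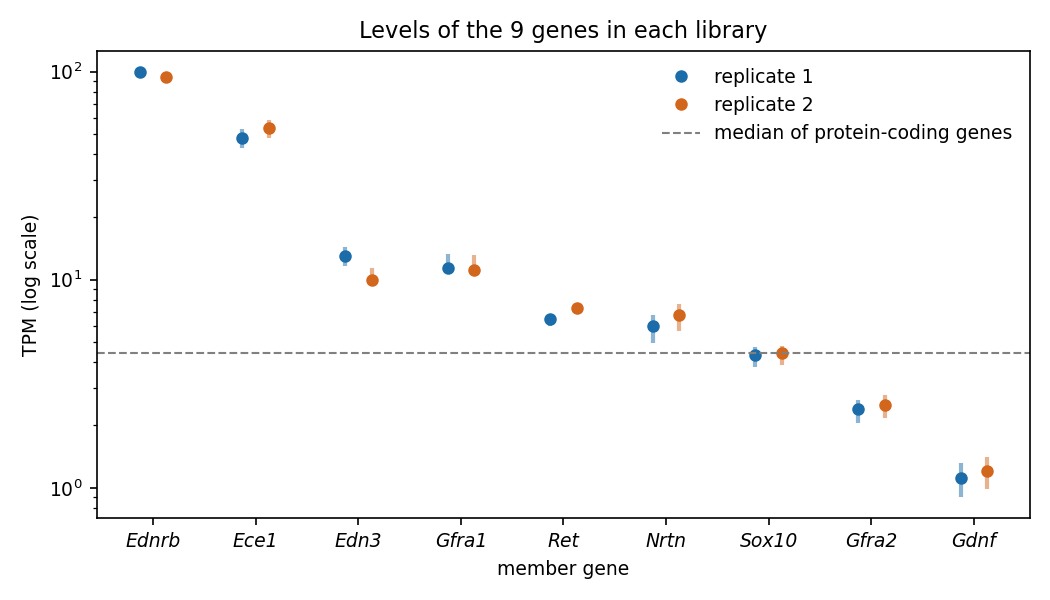
TPM (log axis) of the 9 genes, ordered by their mean, with a point for each library, a bar for the deposited TPM interval and a dashed line at the protein-coding median of 4.46 TPM. Ednrb stood near 97.0 TPM and Gdnf near 1.17 TPM, and 6 of 9 genes lay above the line.

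The receptor Ret (ENSMUSG00000030110.9; mm10 chromosome 6, 118151745 to 118197718, minus strand) stood at 6.45 TPM in replicate 1 and 7.35 in replicate 2, from 1325 and 1443 counts. Its mean of 6.90 ± 0.636 left 44.6% of protein-coding genes above it. The gene makes proteins that share their kinase domain and differ in the last stretch of the cytoplasmic tail, named RET9 and RET51 after the length of that stretch. The coding ends are shown because the transcript tables separate the forms: in GENCODE M21, Ret-202 reads on from the shared exon into a short end of 9 codons after the codon at the junction, and Ret-201 splices to a further exon with 51 such codons. The last 30 shared coding bases are in lower case and the part that differs, with its stop codon, is in capitals (chr6:118155256-118155287 for Ret-202 and chr6:118153853-118154010 for Ret-201, minus strand, mm10).
Ret-202: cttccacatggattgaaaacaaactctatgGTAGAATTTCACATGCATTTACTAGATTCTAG
Ret-201: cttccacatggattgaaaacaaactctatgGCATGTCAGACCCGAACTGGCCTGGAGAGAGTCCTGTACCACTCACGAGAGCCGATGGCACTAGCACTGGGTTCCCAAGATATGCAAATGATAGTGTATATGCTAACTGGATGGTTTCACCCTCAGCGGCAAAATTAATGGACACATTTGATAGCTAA

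Most of the Ret signal was assigned to Ret-202, the transcript with the short coding end (1073 codons against 1115). It held 79.8% of Ret TPM in replicate 1 and 70.8% in replicate 2, a mean of 75.3% ± 6.36. Ret-202 itself was level, at 5.15 and 5.21 TPM, while Ret-201 read 1.30 and 2.15 TPM, so the ratio of the forms was 3.96-fold in replicate 1 and 2.42-fold in replicate 2. The deposited intervals of the forms did not overlap within either library, whereas those of Ret-201 overlapped between the libraries, at 0.686 to 1.91 and 1.37 to 2.76 TPM. The tables carry these transcripts at 7341 bases for Ret-202 and 6064 for Ret-201, against 4497 and 5456 in M21, so the coding ends are tied to the shares through the transcript identifier and not through an identical model. Only reads outside the shared exons separate the forms, and the deposited posterior SD of each form was 54.0 counts in replicate 1 and 58.8 in replicate 2. In M21 their start sites differ as well, 118197133 for Ret-201 and 118197718 for Ret-202. The split therefore does not measure the coding ends alone.

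Among the co-receptors, Gfra1 stood above Gfra2. Gfra1 (chromosome 19, 58235604 to 58455909, minus strand) read 11.4 and 11.1 TPM, from 1289 and 1188 counts. Gfra2 (chromosome 14, 70890120 to 70979838, plus strand) read 2.39 and 2.51 TPM, from 236 and 241 counts. The ratio was 4.44-fold (log2 2.15 ± 0.0714), and the libraries of either gene lay closer to each other than to the other gene. Ret lay between them, 1.62-fold below Gfra1 (log2 -0.70 ± 0.155) and 2.74-fold above Gfra2 (log2 1.45 ± 0.0833). The distance from Ret to Gfra1 rested in part on short transcripts: over transcripts of at least 1000 bases Gfra1 averaged 9.53 ± 0.361 TPM, and the log2 distance from Ret, -0.46 ± 0.187, no longer passed 3 SD.

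The Gfra1 protein exists with and without a stretch of 5 residues encoded by a cassette exon of 15 bases, and the exon is shown because the 2 leading transcripts differ in it. It lies at chr19:58392573-58392587 on the minus strand of mm10, and is in capitals between 20 flanking coding bases on each side.
Gfra1-201: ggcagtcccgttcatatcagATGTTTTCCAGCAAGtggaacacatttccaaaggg
Gfra1-203: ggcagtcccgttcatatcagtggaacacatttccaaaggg

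Gfra1-203, without the exon (463 codons), held 66.4% and 58.0% of Gfra1 TPM. Gfra1-201, with the exon (468 codons), held 19.7% and 22.6%. The form without the exon led in both libraries, and the intervals of these transcripts did not overlap within either library. Their first exons differ as well, so the split does not measure the exon alone. Gfra1-204, a fragment of 841 bases at the start of the gene, took 12.3% and 16.4% of TPM from 2.37% and 3.26% of the counts. Of the 9 annotated Gfra1 transcripts, 4 had no count in either library. Gfra2 had a single transcript in the tables.

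Of the ligands, Nrtn stood above Gdnf. Nrtn (chromosome 17, 56751325 to 56757530, minus strand) read 5.96 and 6.74 TPM, from 162 and 178 counts on a transcript of 1023 bases. Gdnf (chromosome 15, 7810846 to 7837575, plus strand) was the lowest of the 9, at 1.12 and 1.21 TPM, from 112 and 118 counts on a transcript of 3509 bases. The ratio was 5.09-fold in favour of Nrtn (log2 of Gdnf over Nrtn -2.35 ± 0.0509), and the deposited intervals were apart in both libraries. Gdnf lay just above the detection minimum, and the lower ends of its intervals, 0.907 and 0.984 TPM, fell below it. Ligand and preferred receptor thus stood in opposite order in the 2 arms: Gfra1 exceeded Gdnf by 8.96-fold (log2 3.16 ± 0.096), whereas Nrtn exceeded Gfra2 by 2.53-fold, a log2 ratio of Gfra2 to Nrtn of -1.34 ± 0.0755. The order of Gfra2 and Nrtn comes with the correction for length, since in depth-scaled counts without that correction Gfra2 was the higher by a log2 ratio of 0.48 ± 0.0727.

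The other genes of the GDNF family filled out the picture. Of 6 further ligands and receptors, 4 were detected. None was past 2-fold between the pools with intervals apart, where 0.807% of 12885 protein-coding genes were. A call required a mean count of at least 100, so Pspn and Gfral could not be called. Gfra4, the co-receptor of persephin, stood at 7.36 and 5.90 TPM, and its ligand gene Pspn at 0.18 and 0.37. Gfra3, the co-receptor of artemin, stood at 6.32 and 5.53 TPM, and its ligand gene Artn at 3.17 and 4.47. Gdf15 read 3.07 and 3.12 TPM, while Gfral, the receptor of GDF15 known from the hindbrain, had no counts at all (a count of 0 allows up to 3 per library). Gfra3 and Gfra4 both read higher than Gfra2 in each library, a difference that was not among the fixed pairs.

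Ednrb (ENSMUSG00000022122.10; chromosome 14, 103814625 to 103844402, minus strand) was the most abundant of the 9, at 99.6 and 94.4 TPM from 11275 and 10360 counts. Its mean of 97.0 ± 3.64 left 8.13% of protein-coding genes above it. It exceeded Ret 13.9-fold (log2 3.80 ± 0.185), its ligand gene Edn3 8.47-fold (log2 3.08 ± 0.220) and the other endothelin receptor gene Ednra, at 13.1 ± 0.969 TPM, 7.38-fold (log2 2.88 ± 0.0521). Its deposited TPM lay just above the upper end of its own interval in both libraries, 95.9 to 99.5 and 90.8 to 94.4. Intervals are centred on the posterior means, which were 97.7 and 92.6 TPM, and 4.95% of 12885 protein-coding genes had a TPM outside the interval in at least 1 library.

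Both Ednrb transcripts in the tables encode the same 442 codons and differ in where they start. Ednrb-202 held 62.3% and 54.8% of Ednrb TPM, at 62.1 and 51.7 TPM, and Ednrb-201 held the rest, at 37.5 and 42.7 TPM. The deposited intervals of the forms were apart in replicate 1, and in replicate 2 they overlapped, at 45.5 to 55.9 and 36.4 to 47.1 TPM. In M21 the starts lie 706 bases apart, although the tables carry Ednrb-201 at 3878 bases against 4107 there. The start of Ednrb-202 lies 5 bases from the RefSeq start of the gene, and the 250 bases before that start are shown because they precede the start with the larger share (chr14:103843702-103843951, minus strand, RefSeq on GRCm38.p6).
Ednrb promoter: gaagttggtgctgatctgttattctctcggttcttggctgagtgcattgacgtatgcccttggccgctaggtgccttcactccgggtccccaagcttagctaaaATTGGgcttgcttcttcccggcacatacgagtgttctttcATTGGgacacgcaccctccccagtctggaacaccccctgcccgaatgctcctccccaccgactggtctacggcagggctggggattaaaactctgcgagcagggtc

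Capitals mark the 2 matches to CCAAT, read on the other strand as ATTGG. At least 1 match to CCAAT on either strand occurs in 33.8% of 32851 such windows of all genes, so it is no special feature of this gene. TATAAA was searched the same way, occurs in 12.4% of windows and is not among the letters of this one. RefSeq windows were found for 6 of the 9 genes, and Ret, Gfra2 and Sox10 were without one.

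The ligand gene Edn3 (chromosome 2, 174760619 to 174784042, plus strand) read 13.0 TPM in replicate 1 and 9.92 in replicate 2, from 964 and 790 counts. Relative to its mean of 11.5 ± 2.18 TPM, it had the widest spread of the 9. Edn3-201, which encodes a precursor of 214 codons, held 75.1% and 83.9% of TPM, and about the same part of the counts in both libraries, 89.9% and 90.8%. Edn3-203, a transcript of 731 bases, was given 35.9 counts in replicate 1 and 0 in replicate 2, which its short length turned into 1.93 TPM and 0. Over transcripts of at least 1000 bases Edn3 read 11.1 and 9.93 TPM. Of the other endothelin ligands, Edn1, the vascular form, stood at 4.45 and 4.94 TPM and Edn2 at 4.99 and 4.55. Edn3 exceeded Edn1 by 2.39-fold (log2 1.26 ± 0.379).

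Ece1 (chromosome 4, 137862237 to 137965229, plus strand), which is also expressed in endothelium, read 47.8 and 53.6 TPM from 4749 and 5100 counts. A large part of that level came from very few reads. Ece1-203, an incomplete model of 172 bases, received 27 and 29 counts, which were 0.569% of the Ece1 counts in each library, and yet 26.3% and 25.9% of Ece1 TPM. The full-length Ece1-201 held 98.97% and 98.6% of the counts at 33.9 and 37.3 TPM. Ece1 was among 21 of 13311 detected protein-coding genes (0.158%) that drew at least 20% of their TPM from transcripts under 250 bases, limits that were set after this value was seen. Against Ece2, a related protease at 31.2 and 28.6 TPM from 984 and 879 counts, Ece1 was 1.69-fold higher (log2 0.76 ± 0.206). Over transcripts of at least 1000 bases the log2 ratio was 0.28 ± 0.187 and no longer passed 3 SD. In depth-scaled counts without the correction for length it was larger, at 2.40 ± 0.187, so the size of this ratio depends strongly on the transcript lengths used. The fifth further endothelin gene, Ecel1, stayed under the detection minimum at 0.81 and 0.97 TPM.

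**Figure D2:**
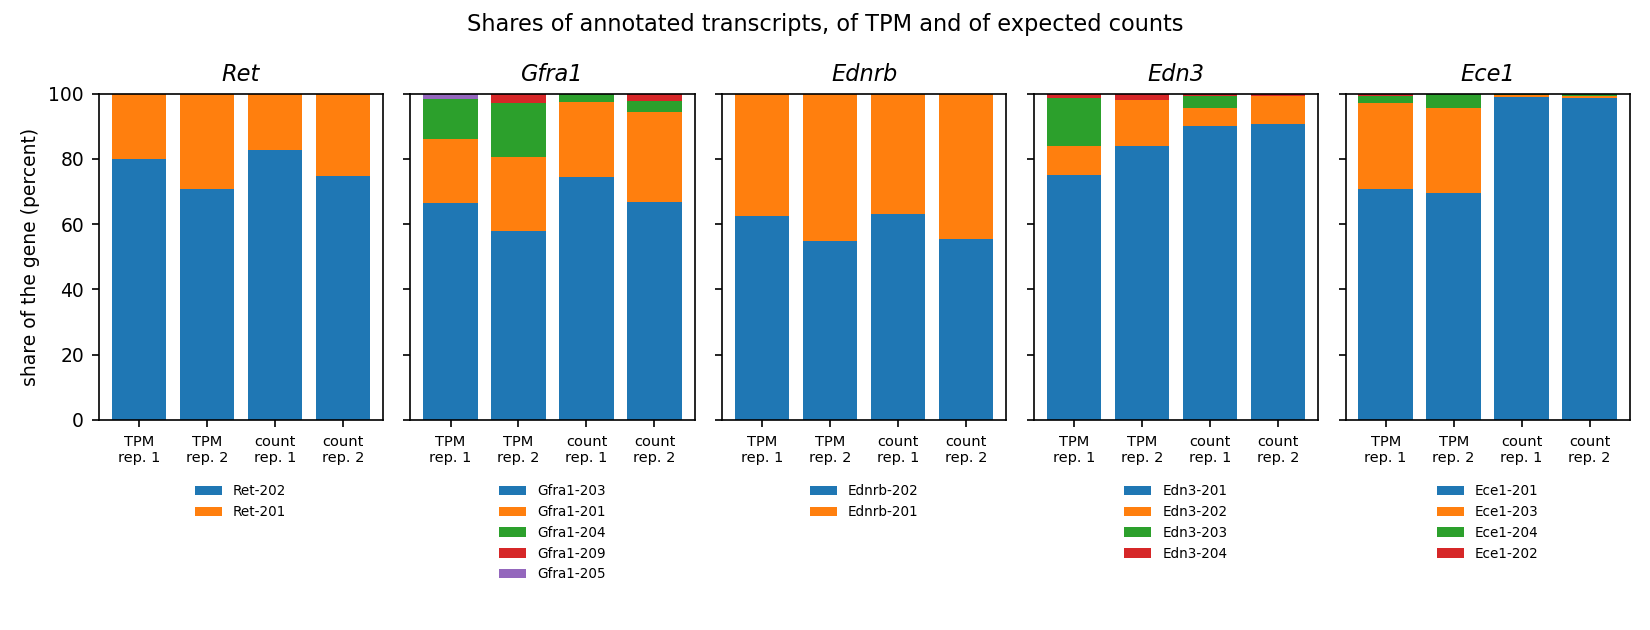
Share of each gene (percent) given to its annotated transcripts, for the 5 genes with several transcripts, as a share of TPM and of expected counts in each library, with transcripts at no count left out. The leading transcript was the same in both libraries for all 5 genes, and Ece1-203 took 26.3% and 25.9% of TPM from 0.569% of the counts.

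The leading transcript was the same in both libraries for 5 of 5 members with several transcripts, where it was for 93.8% of 7785 protein-coding genes with several transcripts whose mean reached 5 TPM. The leading shares of Ret, Gfra1 and Ednrb were higher in replicate 1 and that of Edn3 in replicate 2, by 7.57 to 8.99 percentage points, whereas that of Ece1 differed by 1.24 points. Sox10, Gfra2, Gdnf and Nrtn had a single transcript in the tables.

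Sox10 (chromosome 15, 79154908 to 79165240, minus strand), the crest and glial transcription factor, had the smallest spread of the 9 relative to its mean. It read 4.36 and 4.43 TPM from 335 and 331 counts. Its deposited intervals, 3.82 to 4.74 and 3.88 to 4.82 TPM, were far wider than that difference, so the rank does not show a steadier gene. Its mean of 4.40 ± 0.0495 was 1.55-fold below Ret (log2 -0.64 ± 0.115). Of 11 enteric crest transcription factors, 8 were detected. Meis3 at 25.6 ± 0.0354 and Zeb2 at 24.7 ± 1.24 stood highest, although both are also expressed outside the crest. The neuronal factor Tlx2 was detected as well, at 7.69 and 9.02 TPM. The 3 factors under the minimum were Foxd3 at 0.43 and 0.35 TPM, Tfap2a at 0.08 and 0.06, and Pax3, which had no count. Foxd3, Tfap2a and Tlx2 fall outside the rule for named genes and were picked after their values were seen.

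Other Hirschsprung disease genes were detected in 12 of 13 cases, with a list median of 20.5 ± 0.714 TPM. Tcf4 was highest at 70.7 ± 3.34 TPM, then the neuregulin receptor genes Erbb2 at 30.5 ± 2.27 and Erbb3 at 27.6 ± 3.15, and the neuregulin gene Nrg3 was lowest at 0.24 and 0.15 TPM. Of 14 adaptors and signal proteins that act below RET, 13 were detected, at a median of 14.4 ± 1.04 TPM. Grb10 at 199 ± 0.799, Shc1 at 74.6 ± 2.30 and Grb7 at 74.5 ± 0.0283 stood highest, far above Ret itself, and many cell types express them. Dok6 was lowest, at 0.10 and 0.16 TPM. No gene of these lists was past 2-fold between the pools with intervals apart, where 0.807% of 12885 protein-coding genes were. A call required a mean count of at least 100, so Nrg3 and Dok6, among others, could not be called.

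**Figure D3:**
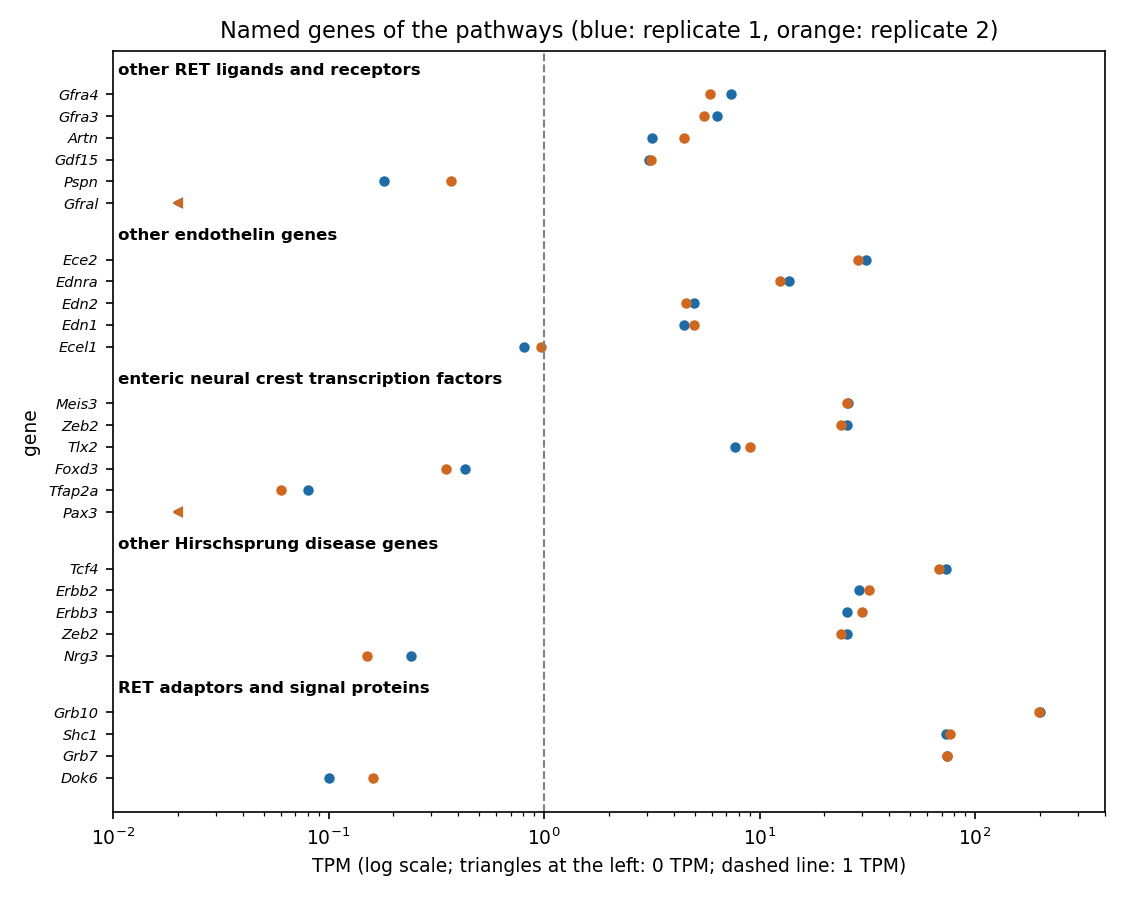
TPM (log axis) of those other genes of the pathways that the text names, by list, blue for replicate 1 and orange for replicate 2, with triangles for genes at 0 TPM and a dashed line at the detection minimum of 1 TPM. Grb10 at 199 TPM stands farthest right, and Gfral and Pax3 are at 0.

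Genes of the cells that carry these receptors were read beside them. Of 11 enteric neuron markers 8 were detected, and the list median was 28.6 ± 0.905 TPM, with Uchl1 at 62.8 ± 3.79, Gap43 at 44.7 ± 3.87 and Stmn2 at 43.3 ± 4.23 highest and Nos1 lowest at 0.77 ± 0.0141. Of 8 progenitor and glial markers 5 were detected, at a median of 2.70 ± 0.205 TPM, with Fabp7 at 29.6 ± 2.26, Erbb3 and Ngfr at 13.4 ± 0.156 highest. Gfap, a marker of mature glia, was lowest at 0.32 and 0.07 TPM. Ret, at 6.90 TPM, thus stood below the neuron median and above the progenitor and glial median. Some of the 9 genes are also expressed elsewhere in the embryo: SOX10 and EDNRB in pigment cells, RET and GDNF in the developing kidney, and RET in the sympathetic and adrenal lineage. These examples are not a full list. Which cells of the whole tissue gave the Ednrb level, and so its ratios to Ret and Edn3, was not tested. Of 5 pigment cell markers 1 was detected, Dct at 1.16 and 1.10 TPM. Pmel passed the minimum in replicate 1 alone, at 1.09 and 0.83 TPM, and Tyrp1 had no count. Of 6 kidney and ureter markers 0 were detected in both libraries. Nphs1 was highest, at 1.79 TPM in replicate 1 and 0.80 in replicate 2, then Pax8 at 0.84 and 0.78, and Umod had no count. The list summed to 2.78 and 1.69 TPM.

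The pools differed little in these genes. None of the 9 was past 2-fold with a mean count of at least 100 and intervals apart, where 0.807% of 12885 protein-coding genes were (0.458% higher in replicate 2 and 0.349% higher in replicate 1). The log2 ratios of TPM, replicate 2 over replicate 1 with a pseudocount of 0.1, ran from -0.39 for Edn3 to 0.19 for Ret, with 6 of 9 higher in replicate 2 and a median of 0.07, against a median of -0.01 for expressed protein-coding genes. The central 95% of protein-coding genes lay between -0.38 and 0.51, and 8 of the 9 fell inside it. Edn3 lay just outside, 1.31-fold higher in replicate 1, and 7.12% of genes had a log2 ratio of at least that size. In counts with TMM scaling its ratio was closer, at -0.23. Deposited intervals were apart for 3 of 9 genes, Ret higher in replicate 2, and Ednrb and Edn3 higher in replicate 1, where they were apart for 26.3% of genes (13.7% higher in replicate 2 and 12.6% higher in replicate 1), so that share is near the background.

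**Figure D4:**
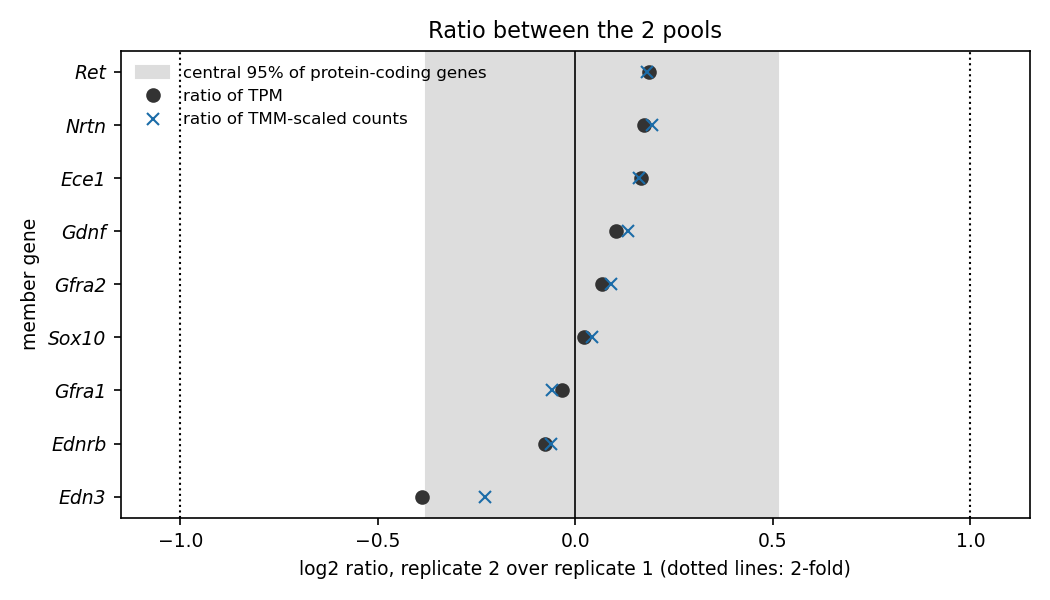
Log2 ratio of replicate 2 over replicate 1 for the 9 genes, as TPM with a pseudocount of 0.1 (dots) and as TMM-scaled counts (crosses), with the central 95% of protein-coding genes in grey and dotted lines at 2-fold. Edn3 sits farthest left at -0.39 in TPM and -0.23 in counts, and all 9 genes lie inside 2-fold.

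Markers of some other tissues differed between the pools. Adrenal cortex genes were higher in replicate 1 in 4 of 4 cases and summed to 47.3 TPM there and 6.20 in replicate 2, with Cyp21a1 at 13.2 and 0.05 TPM, and all 4 passed the 2-fold rule. Of the 5 sympathetic and chromaffin genes, 4 were higher in replicate 1, among them Th at 2.81 and 1.78 TPM and Dbh at 1.18 and 0.88, but their sum was higher in replicate 2, at 21.8 and 25.9 TPM, through Slc18a1 at 11 and 16.9. Slc18a1 is also expressed in enteroendocrine cells. Enteric neuron markers were higher in replicate 1 in 10 of 11 cases, with sums of 302.6 and 268.9 TPM. Their median log2 ratio was -0.18, beside -0.01 for expressed protein-coding genes. The progenitor and glial markers were higher there in 5 of 8. Their sum was slightly higher in replicate 2, at 76.8 and 77.8 TPM, through Erbb3 at 25.3 and 29.8. Genes of a list are not independent cases, and the share of all genes that read higher in replicate 1 was not computed. None of these neuron, progenitor and glial markers passed the 2-fold rule. That rule includes the minimum mean count, so Gfap and Chat, among others, could not pass it whatever their ratio. Of the 9 genes, Edn3, Ednrb and Gfra1 read higher in replicate 1, and the other 6, Sox10 and Ret among them, read higher in replicate 2. The part of these tissues in the values of the 9 genes was not tested.

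Annotated antisense genes overlap 2 of the 9. Gm16277 shares 444 bases with the 3′ end of Gfra1 and had 35.9 and 22.1 counts, and Gm13012 lies within the span of Ece1 and had 8 and 4 counts. Strand handling was not given in the sources used here, so reads from these overlaps may not be separable.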

How the data were processed

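The 9 genes, the gene lists and the pairs were chosen with earlier results of these data known. Reads were assigned to GENCODE M4 transcripts on mm10, per the file headers and deposited notes. Aligner and quantifier were not given in the sources used here. Expected counts, as deposited, are estimated reads without normalisation. The deposited TPM values divide them by effective length and scale over all features, spike-ins included. Percent values, also as deposited, express a transcript as a share of the TPM of its gene. The level of the deposited TPM intervals is not stated in the files. Short models weigh heavily in TPM, since effective length is length minus a constant.

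Symbols, coordinates and coding ends came from GENCODE M21, which matched 42462 of 43346 gene identifiers (98.0%), and promoter windows from RefSeq. Features with numeric identifiers name no gene, held 0.000147% and 0.000157% of counts and were left out. Named genes were all 9, all genes of lists of 6 or fewer, the 3 highest and the lowest of longer lists, pair genes and overlapping genes, and markers named beyond these were picked after their values were seen. Some genes of the lists are not reported here. Expected counts were rounded for the scaling factors of edgeR 4.0.16 (TMM) and DESeq2 1.42.0 in R 4.3.3. Scaled counts took a pseudocount of 0.5. Other steps used Python 3.11.15, numpy 2.4.6 and pandas 2.3.3. Intervals cover assignment and counting error within a library alone, and not the spread between libraries. PCR copies were not told apart by molecular identifiers.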

Additional observations from a re-analysis of the deposited data

How the results depend on the processing

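All 9 genes were detected with posterior mean TPM, with a minimum of 0.5 TPM and without either library, and 8 with a minimum of 2 TPM. None passed the fold between pools at 1.5-fold, with no minimum count, with TMM or DESeq2 scaling, with posterior means or with a pseudocount of 1. Scaled over protein-coding genes not encoded by mitochondria, all levels were higher by about the same factor (1.19 and 1.20 in replicates 1 and 2): Ednrb 115.9, Ece1 60.6, Edn3 13.7, Gfra1 13.4, Ret 8.24, Nrtn 7.59, Sox10 5.25, Gfra2 2.93 and Gdnf 1.39 TPM. With posterior means Gfra1 stood at 12.1 and Sox10 at 4.32 TPM. Over transcripts of at least 1000 bases, an alternative chosen after seeing the transcript tables, Ece1 stood at 35.6 and Gfra1 at 9.53 TPM.

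In TPM, all 13 fixed pairs were apart. In counts without length, log2 ratios turned for Ret over Gfra1 (0.16), Gfra1 over Ret in the order (-0.16), Gfra2 over Nrtn (0.48), Nrtn over Sox10 (-0.95) and Edn3 over Gfra1 (-0.50). Edn3 over Gfra1 also turned with posterior means (-0.060), and with 1 library left out it ranged from -0.16 without replicate 1 to 0.19 without replicate 2. The share of Ret-202 ranged from 70.8% to 79.8% with either library left out. The turns in counts follow from leaving out length, and for the others the cause was not tested. Low counts limit Gdnf and Nrtn most. No paired analysis was possible because both libraries belong to 1 group.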

Other observations

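Marker genes of further cell types in which members are known to act were read as well. Of 4 markers of lymphoid tissue inducer cells, which use RET ligands in Peyer's patch formation, 2 were detected, among them Ltb at 3.79 and 3.99 TPM, and Cxcr5 was lowest at 0.97 and 0.64. All 6 endothelial genes were detected, at a median of 16.8 ± 1.19 TPM, with Egfl7 at 97.3 ± 5.50, Pecam1 at 41.3 ± 0.212 and Kdr at 17.5 ± 1.22 highest and Tek lowest at 8.26 ± 0.205. All 5 mesenchymal genes were detected, with a median of 233 ± 13.4 TPM, all 4 mesothelial genes with 14.0 ± 1.44 and all 5 enteroendocrine genes with 50.02 ± 1.77. Of 4 Schwann cell markers 2 were detected, among them Mbp at 15.4 ± 0.233 TPM, and Pmp2 had 1 count in replicate 1 and 0 in replicate 2.

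The 4 pancreatic genes all read higher in replicate 2, with sums of 4280 and 5547 TPM, and 0 of 4 passed the 2-fold rule. The 4 liver genes all read higher in replicate 1, with sums of 408.7 and 253.7 TPM, and 2 of 4 passed it.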
